A study of Mus musculus with 16 samples.

Results

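The genes of cholesterol synthesis and sterol regulation were described in HL-1, a cell line from mouse atrial muscle that still contracts as it is passaged. The set was a fixed list of 31 genes, all of which were measured, out of 17771 genes tested. It held 18 enzymes of the synthesis pathway, Ggps1 of the isoprenoid branch, 5 genes of the SREBP system, 2 LXR receptor genes, 2 sterol transport genes and 3 efflux genes or LXR targets. Cultures were exposed for 6 h to vehicle (PBS), to 100 nM of the synthetic glucocorticoid dexamethasone (Dex), to 10 nM of estradiol (E2), or to Dex and E2 together. Each label had 4 single-colour arrays, numbered 1 to 4 of this single line.

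Cells make cholesterol from acetyl-CoA by a long series of enzymes and export the surplus through ABC transporters. When sterol in the endoplasmic reticulum is low, SCAP escorts the SREBP transcription factors to the Golgi, where they are cleaved and released to switch on the synthesis genes, and the INSIG proteins hold this escort back when sterol is plentiful. Oxysterols, which accumulate with cholesterol, activate the nuclear receptors LXR alpha and beta, which switch on efflux genes such as Abca1 and Abcg1.

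All levels are log2 values of the background-subtracted spot intensity, after subtracting the array's own 75th percentile, and a difference between arrays is on the same log2 scale. Levels of different genes come from different probes and were not set against each other. A gene was called when limma's Benjamini-Hochberg adjusted p over all genes tested was under 0.05. Of the 31 genes, 30 were well above background on 16 of 16 arrays, and Acat2 was on 15. Of the genes listed as atrial cardiomyocyte markers, 9 of 9 were above background on all 16 arrays, among them Myl7 and Nppa. Of all probes, 58.6% to 65.6% were well above background, depending on the array. Markers of other cell types were also above background on all 16 arrays: 3 of 3 ventricular, 3 of 3 smooth muscle, 4 of 5 fibroblast, 1 of 4 endothelial (Kdr) and 1 of 4 macrophage markers (Cd68). The endothelial genes Pecam1 and Cdh5, the macrophage genes Ptprc and Adgre1 and the fibroblast gene Lum were above background on 0 arrays, Tek on 2 and Csf1r on 9.

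Glucocorticoid target genes went against the label of 4 arrays. Per1, a clock gene that glucocorticoids induce, was at 1.75 to 1.99 on 8 arrays and at -1.29 to -0.75 on the other 8, with no level between. The high arrays were Dex 1, 2 and 4, Dex+E2 1, 2 and 4, and number 4 of both Vehicle and E2. Vehicle 4 and E2 4 were therefore high without Dex in their label, and Dex 3 and Dex+E2 3 were low with it. Klf15, Map3k6, Tsc22d3 and Fkbp5, further glucocorticoid targets, also did not overlap between these 2 sets of arrays. Among arrays numbered 1 and 2 the Per1 class followed the Dex label, and among those numbered 3 and 4 it followed the number. Directions below are therefore those of the labels or numbers. The arrays lay on 4 slides, each holding 2 labels. Whether same-label arrays came from separate cultures is stated only for the series as 4 independent experiments, so p-values measure the spread between these arrays.

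The synthesis enzymes did not separate by label. None of the 31 genes was called in any of the 3 treatments against vehicle, in the combination against either single agent, the Dex by E2 interaction, or the average difference between labels with and without Dex. Of all genes, 0.0% were called in each of these 7 comparisons, so a count of 0 is also the background here. The glucocorticoid targets Per1, Klf15, Map3k6, Tsc22d3 and Fkbp5 were among the genes not called. The lack of calls therefore does not show whether the enzymes respond to Dex. At an unadjusted p under 0.05, 3 of the 31 genes and 1933 of all genes were found in Dex against vehicle by limma, and 1 and 1779 in the average Dex difference. The smallest adjusted p of any member in a label comparison was 0.451. Leaving out the enzyme gene Acat2, the 95% intervals of the enzyme differences lay between -0.41 and 0.69 in Dex against vehicle and between -0.22 and 0.41 in the average Dex difference.

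The direction of the enzymes against vehicle rested in part on a single array. In Dex against vehicle, 17 of 18 enzymes had positive differences with a median of 0.13, beside 43.3% of all genes and a median of -0.03. The count was 15 of 18 in E2 against vehicle and 15 of 18 in Dex+E2 against vehicle, with medians of 0.07 and 0.08 that turned to -0.44 and -0.21 with normexp background correction. These 3 comparisons share the vehicle arrays, and the Dex against vehicle median was 0.08 with normexp. That correction put the median of all genes in E2 against vehicle at 0.12. On Vehicle 2, 14 of the 18 enzymes lay below their own median over the arrays, with a median deviation of -0.34, and 11 of the 18 had their lowest level of all there. Of all genes measured on 16 arrays, 18.1% were lowest on Vehicle 2. Without Vehicle 2 the counts became 15, 7 and 9 of 18, with medians of 0.08, -0.02 and 0.01.

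**Figure D1:**
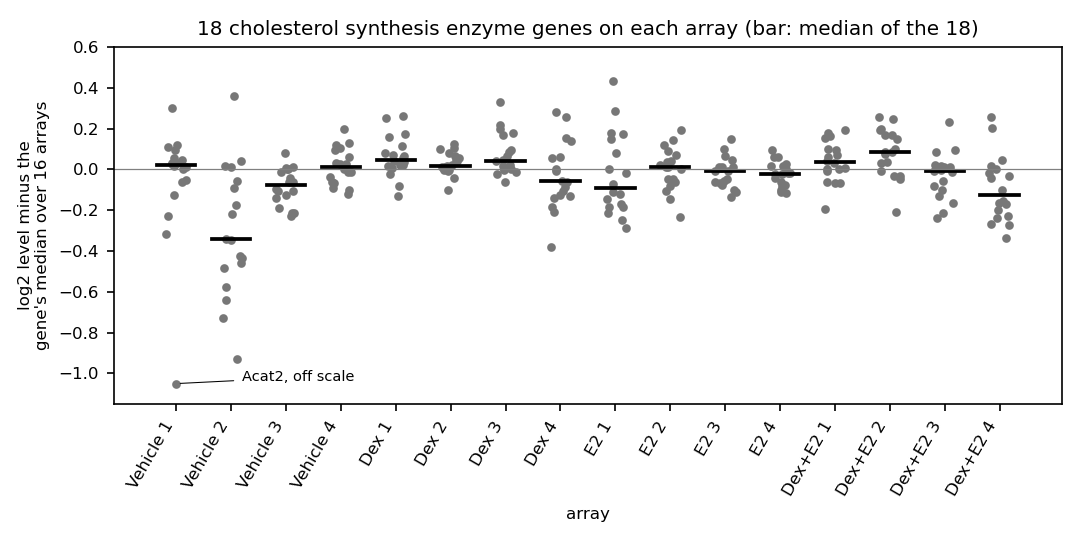
Each point is 1 of the 18 synthesis enzyme genes on 1 array, as its log2 level minus its own median over the 16 arrays, and the bar is the median of the 18. Vehicle 2 has the lowest bar, at -0.34, and Acat2 on Vehicle 1, whose level was -8.01, is drawn at the lower edge because it lies off the scale.

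Among the first enzymes of the pathway, Hmgcs1, which forms HMG-CoA, was at 3.51 ± 0.16 on the Vehicle arrays, 3.67 ± 0.20 on Dex, 3.57 ± 0.16 on E2 and 3.57 ± 0.23 on Dex+E2 (SD, n = 4 each). Its labels overlapped, and Dex differed from vehicle by 0.16 ± 0.12 (SE; limma adjusted p = 0.64), and by 0.08 ± 0.13 without Vehicle 2. Acat2, the cytosolic thiolase that joins acetyl-CoA units, was at -8.01, -1.93, -2.04 and -2.01 on Vehicle 1 to 4. The arrays of the other labels ranged from -2.14 to -1.66, so that Vehicle 1, on which the spot was not well above background, stood alone. Dex differed from vehicle in Acat2 by 1.59 ± 0.95 (SE; limma adjusted p = 0.546), and by 0.08 ± 0.11 without Vehicle 1. Mvk, mevalonate kinase, and Pmvk, phosphomevalonate kinase, were lowest on Vehicle 2, at -1.03 and 3.83. Mvd, which makes isopentenyl diphosphate, was at 1.26, 1.24, 1.17 and 1.13 on Vehicle 1 to 4, and at 1.25, 1.24, 1.45 and 1.23 on Dex 1 to 4. It was at 1.31, 1.32, 1.17 and 1.23 on E2 1 to 4 and at 1.17, 1.2, 1.22 and 1.03 on Dex+E2 1 to 4. Every Dex array lay above every Dex+E2 array, with the highest level on Dex 3 and the lowest on Dex+E2 4, and the Vehicle and E2 arrays overlapped both. Dex+E2 differed from Dex by -0.14 ± 0.07 (SE; limma adjusted p = 1.0).

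Idi1 encodes isopentenyl diphosphate isomerase, which makes the allylic building block of all isoprenoids. It was at 3.32, 3.01, 3.23 and 3.55 on Vehicle 1 to 4 and at 3.62, 3.44, 3.54 and 3.39 on Dex 1 to 4. On E2 1 to 4 it was at 3.23, 3.21, 3.45 and 3.42, and on Dex+E2 1 to 4 at 3.64, 3.70, 3.53 and 3.46. The Dex+E2 arrays all lay above the E2 arrays, whereas the Dex and Vehicle arrays overlapped through Vehicle 4. Labels with Dex differed from those without by 0.24 ± 0.07 (SE), with the smallest unadjusted p of the 31 genes in this comparison, 0.00481, and a limma adjusted p of 0.492. The difference was 0.19 ± 0.06 without Vehicle 2 (limma adjusted p = 0.614). Without the 4 arrays that go against their labels it was 0.30 ± 0.08 and was called (limma adjusted p = 0.0433), in a fit that called 5.53% of all genes. It was 0.41 ± 0.08 (limma adjusted p = 0.0301) over the arrays numbered 1 and 2 only, where 6.65% of all genes were called. The 4 arrays left out were chosen by their Per1 level, so the call without them is not independent of genes that vary with Per1. Idi1 was not called in the other 25 of 27 alternative fits of this comparison. Array 4 differed from array 3 by 0.02 ± 0.09 in Idi1 (SE; limma adjusted p = 0.944). The second Idi1 probe differed by 0.34 between labels with and without Dex over arrays 1 and 2, beside 0.41 for the probe used.

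The enzymes that follow build and close the sterol ring. Fdps, farnesyl diphosphate synthase, was lowest on Vehicle 2, at 3.45, and Sqle, squalene epoxidase, also, at 3.25. Fdft1, squalene synthase, was at 0.85, 0.66, 0.82 and 0.80 on Vehicle 1 to 4, and at 0.90, 0.96, 0.81 and 0.99 on Dex 1 to 4. It was at 1.27, 1.03, 0.77 and 0.76 on E2 1 to 4 and at 0.77, 0.87, 0.62 and 0.88 on Dex+E2 1 to 4. E2 1 was the highest array, and the 4 labels overlapped. The interaction in Fdft1 was -0.31 ± 0.14 (SE; limma adjusted p = 0.999). Lss, lanosterol synthase, was at -0.34, -0.60, -0.02 and 0.00 on Vehicle 1 to 4, and at -0.05, 0.02, -0.03 and 0.23 on Dex 1 to 4. It was at 0.15, 0.01, -0.07 and -0.05 on E2 1 to 4 and at -0.09, 0.06, -0.19 and 0.23 on Dex+E2 1 to 4. Vehicle 1 and 2 were the lowest arrays. Dex differed from vehicle in Lss by 0.28 ± 0.13 (SE; limma adjusted p = 0.453), and by 0.16 ± 0.11 without Vehicle 2.

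The late enzymes turn lanosterol into cholesterol. Cyp51, lanosterol 14-demethylase, was at 1.39, 0.86, 1.22 and 1.33 on Vehicle 1 to 4 and at 1.46, 1.45, 1.43 and 1.24 on Dex 1 to 4. It was at 1.2, 1.30, 1.39 and 1.23 on E2 1 to 4, and at 1.51, 1.42, 1.36 and 1.18 on Dex+E2 1 to 4. Vehicle 2 was its lowest array, and labels with Dex differed from those without by 0.14 ± 0.07 (SE; limma adjusted p = 0.504), and by 0.09 ± 0.06 without Vehicle 2. The other 2 Cyp51 probes differed by -0.03 and 0.02 between labels with and without Dex over arrays 1 and 2, beside 0.27 for the probe used. Nsdhl, which removes the C4 carboxyl group, was at 1.01, 0.34, 1.01 and 1.27 on Vehicle 1 to 4 and at 1.32, 1.03, 1.25 and 1.13 on Dex 1 to 4. On E2 1 to 4 it was at 0.96, 0.99, 1.22 and 1.05, and on Dex+E2 1 to 4 at 1.25, 1.27, 1.09 and 0.97. Again Vehicle 2 was the lowest, and all 3 Nsdhl probes were lowest on that array, at 0.34, 0.07 and -0.48. Labels with Dex differed from those without in Nsdhl by 0.18 ± 0.11 (SE; limma adjusted p = 0.52), and by 0.09 ± 0.07 without Vehicle 2. Msmo1 and Dhcr7 were also lowest on Vehicle 2, at 3.38 and 2.80. Hsd17b7 was highest there, at 1.77, and Mvd, Fdft1, Tm7sf2, Ebp, Sc5d and Acat2 had their lowest level on other arrays.

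Over the 16 arrays, the median Pearson correlation among the 153 pairs of enzymes was 0.33, and 70.6% of pairs were positive. Without Vehicle 1 and 2, a choice made after seeing the data, the median over 14 arrays was 0.18 and 59.5% were positive. The arrays share slides, so these are descriptions.

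The 5 genes of the SREBP system were not called between labels, where 0.0% of all genes were called. They were not called between array numbers either, beside 3.11% of all genes. Srebf1, which encodes SREBP-1 and is itself an LXR target, was at 5.07, 4.47, 4.54 and 4.45 on Vehicle 1 to 4, and at 4.79, 4.80, 4.60 and 4.33 on Dex 1 to 4. It was at 4.96, 5.07, 4.68 and 4.63 on E2 1 to 4, and at 4.67, 4.65, 4.68 and 4.35 on Dex+E2 1 to 4. Vehicle 1 and E2 1 and 2 stood above the other 13 arrays. E2 differed from vehicle in Srebf1 by 0.20 ± 0.15 (SE; limma adjusted p = 0.979), by 0.35 ± 0.13 without Vehicle 1, and by 0.48 ± 0.14 with slide as a block (limma adjusted p = 0.48). Insig1, an SREBP target whose product retains SCAP, was at -0.04, -0.53, -0.26 and -0.48 on Vehicle 1 to 4 and at -0.35, -0.28, -0.27 and -0.38 on Dex 1 to 4. It was at 0.13, 0.08, -0.21 and -0.46 on E2 1 to 4 and at -0.45, -0.41, -0.41 and -0.40 on Dex+E2 1 to 4. The same 3 arrays, Vehicle 1 and E2 1 and 2, were the highest. Dex+E2 differed from E2 in Insig1 by -0.30 ± 0.12 (SE; unadjusted p = 0.0264, limma adjusted p = 1.0). Srebf1 and Insig1 had a Pearson correlation of 0.78 over the 16 arrays.

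Srebf2, which encodes the SREBP most tied to cholesterol synthesis, was at 0.19, 0.05, 0.42 and 0.29 on Vehicle 1 to 4 and at 0.21, 0.13, 0.45 and 0.48 on Dex 1 to 4. On E2 1 to 4 it was at 0.53, 0.34, 0.30 and 0.21, and on Dex+E2 1 to 4 at 0.25, 0.25, 0.07 and 0.37. The 4 labels overlapped, and Dex differed from vehicle by 0.08 ± 0.10 (SE; limma adjusted p = 0.796). Insig2, the second SCAP-retaining protein gene, was at 2.67, 2.57, 2.40 and 2.44 on Vehicle 1 to 4 and at 2.49, 2.42, 2.52 and 2.18 on Dex 1 to 4. It was at 2.24, 2.39, 2.53 and 2.51 on E2 1 to 4, and at 2.52, 2.57, 2.56 and 2.17 on Dex+E2 1 to 4. Dex 4 and Dex+E2 4 were the lowest, and Dex differed from vehicle in Insig2 by -0.12 ± 0.10 (SE; limma adjusted p = 0.671). Scap ranged from 3.92 on Dex+E2 4 to 4.40 on Dex 3, and Ggps1, which makes geranylgeranyl diphosphate, from 0.02 to 0.35.

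The sterol transport genes were Stard4, a soluble carrier of cholesterol, and Npc1, which moves cholesterol out of lysosomes. Stard4 was at 1.14, 0.86, 0.81 and 0.83 on Vehicle 1 to 4, and at 0.77, 0.77, 0.68 and 0.49 on Dex 1 to 4. On E2 1 to 4 it was at 0.94, 0.81, 0.79 and 0.67, and on Dex+E2 1 to 4 at 0.87, 0.95, 0.81 and 0.84. Every Dex array lay below every Vehicle and every Dex+E2 array, and the Dex and E2 arrays overlapped. Dex differed from vehicle in Stard4 by -0.23 ± 0.09 (SE; unadjusted p = 0.0173, limma adjusted p = 0.451), and by -0.15 ± 0.08 without Vehicle 1. The interaction was 0.30 ± 0.12 (SE; limma adjusted p = 0.999), and Dex 3, whose Per1 level goes against its label, was the third lowest Stard4 array. The other 2 Stard4 probes differed by 0.02 and -0.03 between labels with and without Dex over arrays 1 and 2, beside -0.10 for the probe used. Npc1 ranged from -1.60 on Vehicle 4 to -0.92 on Vehicle 2.

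**Figure D2:**
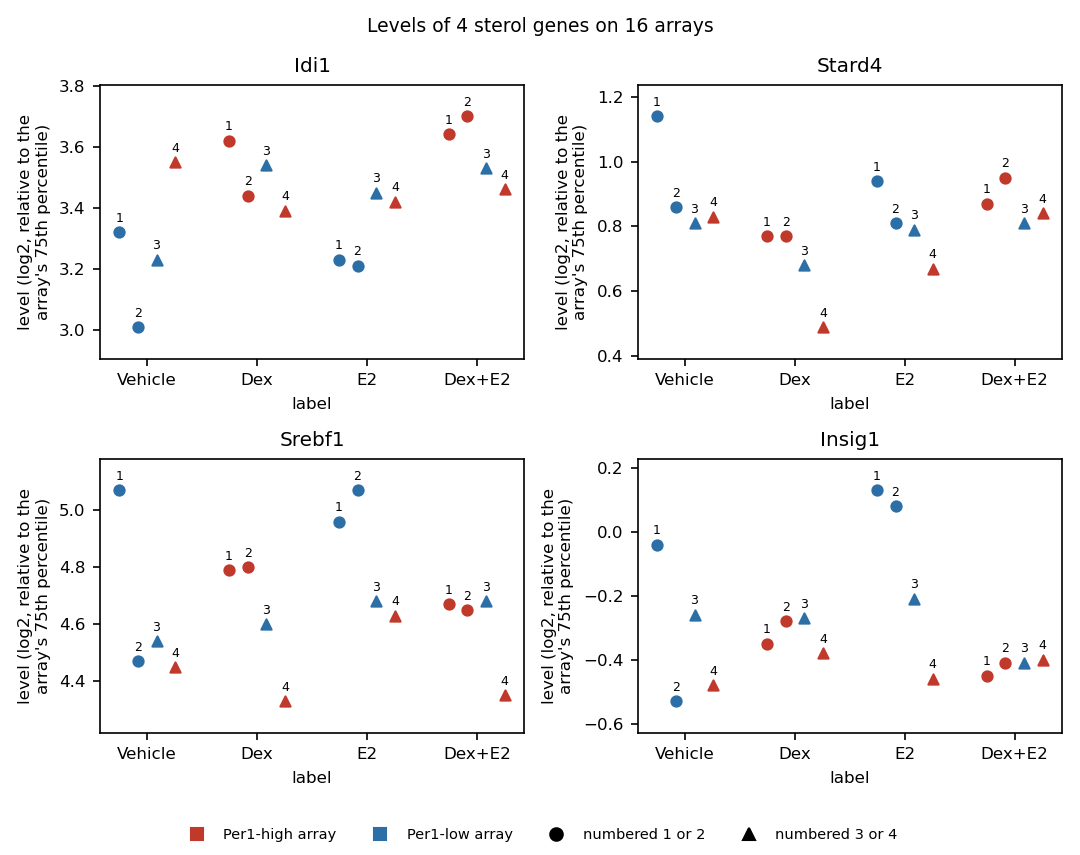
Levels (log2, minus the array's own 75th percentile) of Idi1, Stard4, Srebf1 and Insig1 by label, with the array number above each point, red for arrays high in Per1 and blue for arrays low in it. Stard4 lies at 0.49 to 0.77 on the Dex arrays and at 0.81 to 1.14 on the Vehicle arrays, and Srebf1 and Insig1 share their 3 highest arrays.

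Abca1, which loads cellular cholesterol onto apolipoprotein A-I, was lower on the arrays numbered 4 than on those numbered 3 in every label. It was at 2.94, 2.92, 2.63 and 2.07 on Vehicle 1 to 4, and at 2.53, 2.41, 2.45 and 1.94 on Dex 1 to 4. It was at 2.99, 2.73, 2.69 and 2.16 on E2 1 to 4, and at 2.68, 2.56, 2.7 and 2.17 on Dex+E2 1 to 4. The 4 arrays numbered 4 were the 4 lowest of the 16. Array 4 minus array 3 was -0.56 in Vehicle, -0.51 in Dex, -0.53 in E2 and -0.53 in Dex+E2. Fitted over these 8 arrays with the label as a covariate, the difference was -0.53 ± 0.05 (SE; limma adjusted p = 0.00587). Abca1 was the 1 member called there, of 31, beside 552 of 17771 genes, or 3.11%, with 1.5% of all genes called as lower. A count of 1 in 31 is near the share of all genes, so it does not set the members apart. The comparison is of array numbers, which the labels do not tie to a treatment. Array 4 lay beside array 3 on the same slide in each label, so within these 8 arrays number and position cannot be told apart. Arrays 1 and 2 of each label lay side by side too. On these, Abca1 was at 2.94 and 2.92 in Vehicle, 2.53 and 2.41 in Dex, 2.99 and 2.73 in E2, and 2.68 and 2.56 in Dex+E2. A part of position was not tested.

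The call for Abca1 was close to the threshold when a label was lost. Leaving out either array of a label removes that label from this comparison. The adjusted p was 0.0501 without Dex 3, 0.0507 without Dex 4, and 0.0552 without E2 3 or without E2 4, with differences of -0.54 to -0.53, and the call held without each of the other 4 arrays in turn. Over all 15 alternatives the adjusted p ran from 0.00306 to 0.0552. Some cell type markers also differed in this comparison: 1 of 9 atrial, 1 of 3 ventricular and 1 of 4 endothelial markers were called. Kdr, a VEGF receptor gene, differed by 0.78 (limma adjusted p = 0.00338) and the slow myosin gene Myh7 by 0.92 (limma adjusted p = 0.0138). The atrial gene Sln differed by 0.90 (limma adjusted p = 0.00283). Of the 4 endothelial markers, Pecam1 and Cdh5 were above background on 0 arrays and Tek on 2. The summed level of the 4 endothelial markers was 0.07 to 0.40 on arrays numbered 3 and 0.83 to 1.17 on those numbered 4, and that of the 3 ventricular markers was 0.99 to 1.21 and 1.78 to 2.25. That of the 9 atrial markers was 9.17 to 9.22 and 9.13 to 9.37, and that of the 5 fibroblast markers was 4.86 to 5.0 and 4.61 to 4.80. Over the 16 arrays Kdr alone ranged from 0.05 to 1.16 and Myh7 from 0.4 to 2.5. The endothelial and ventricular sums therefore largely restate 1 gene each. The other ventricular markers, Myl2 and Irx4, differed by -0.27 and -0.09 (limma adjusted p = 0.284 and 0.809). The part of the cell type markers in the result was not tested. In a bulk sample, fewer cells of a type and less RNA per cell cannot be told apart.

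Abcg1, which exports cholesterol to high density lipoprotein, was at 1.31, 1.63, 0.45 and 0.20 on Vehicle 1 to 4 and at 0.84, 0.67, 0.72 and -0.02 on Dex 1 to 4. On E2 1 to 4 it was at 0.73, 0.98, 0.72 and 0.44, and on Dex+E2 1 to 4 at 0.65, 0.78, 0.85 and 0.02. The array numbered 4 was the lowest of each label, as it was for Abca1. Array 4 differed from array 3 by -0.53 ± 0.12 (SE; unadjusted p = 0.00373), which was not called (limma adjusted p = 0.0799). The differences ran from -0.26 in Vehicle to -0.83 in Dex+E2. Abca1 and Abcg1 had a Pearson correlation of 0.83 over the 16 arrays. Mylip, an LXR target whose product degrades lipoprotein receptors, differed by 0.02 ± 0.09 (SE; limma adjusted p = 0.939). Its probes disagreed: the second Mylip probe, above background on 15 arrays, had a mean array 4 minus array 3 of -0.55 and was lower in 3 of 4 labels. With the mean over both probes the Mylip difference was -0.26 (limma adjusted p = 0.285).

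**Figure D3:**
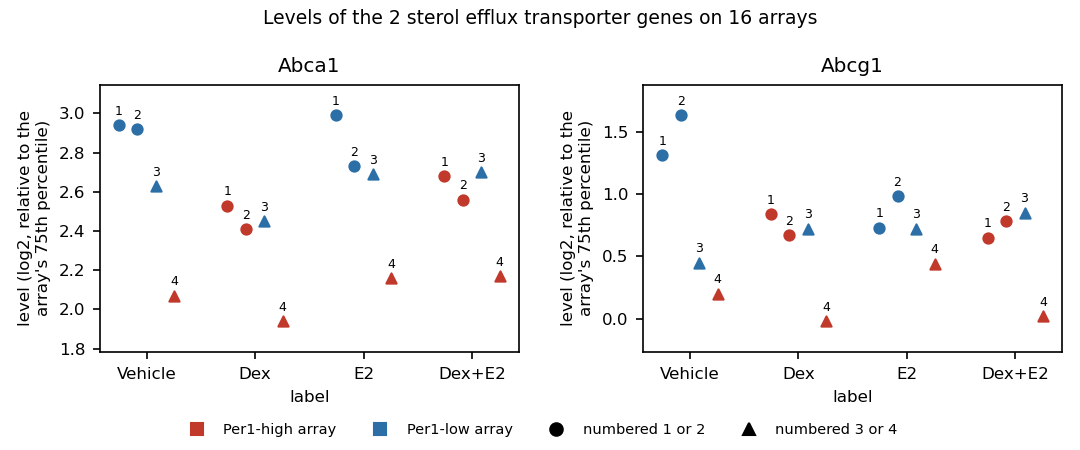
Levels (log2, minus the array's own 75th percentile) of Abca1 and Abcg1 by label, with the array number above each point, red for arrays high in Per1 and blue for arrays low in it. The arrays numbered 4 are the lowest of their label for both genes, at 1.94 to 2.17 for Abca1 and -0.02 to 0.44 for Abcg1.

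Between arrays high and low in Per1, 0 of the 31 members were free of overlap, beside 712 of the 17529 genes measured on 16 arrays, or 4.06%. Abca1 had a median of 2.72 on the 8 low arrays, from 2.45 to 2.99, and of 2.29 on the 8 high arrays, from 1.94 to 2.68. Taken within the arrays numbered 1 and 2, a split added after seeing the data, Abca1 was at 2.73 to 2.99 on low arrays and 2.41 to 2.68 on high arrays. Within those numbered 3 and 4 it was at 2.45 to 2.7 and 1.94 to 2.17. The Per1 class followed the Dex label on arrays 1 and 2 and the array number on arrays 3 and 4. These splits therefore restate the comparisons of Dex labels and of array numbers and are not separate results. Abca1 was the 1 member of 31 with no overlap in the same direction in both splits, beside 6.0% of all genes. This count does not set the members apart from other genes. With normexp background correction 0 members had no overlap in both, and the genes free of overlap over all 16 arrays fell from 712 to 85. None of the 18 enzymes was free of overlap in both. Within arrays 1 and 2, 5 of the 18 were, beside 16.7% of all genes, and within arrays 3 and 4 it was 1, Sqle, beside 12.3%. Of the enzymes, 13 of 18 had a higher median on the Per1-high arrays, with a median difference of 0.06, beside 45.7% of all genes and -0.01.

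The labels gave the efflux genes no call over all 16 arrays, where 0.0% of all genes were called. Dex differed from vehicle by -0.30 ± 0.21 in Abca1 (SE; limma adjusted p = 0.584) and by -0.35 ± 0.29 in Abcg1 (SE; limma adjusted p = 0.656). Over the arrays numbered 1 and 2 only, labels with Dex differed from those without by -0.35 ± 0.07 in Abca1 (SE; limma adjusted p = 0.0354), beside 6.65% of all genes called. Over the same arrays, Dex+E2 differed from vehicle by -0.75 ± 0.14 in Abcg1 (SE; limma adjusted p = 0.0383), where 3.69% were called, and E2 differed from vehicle by -0.61 ± 0.14 (SE; limma adjusted p = 0.176). Dex against vehicle called neither gene there, beside 2.36% of all genes. With slide as a block and without the 4 arrays that go against their labels, a fit added after seeing the data, Dex differed from vehicle by -0.54 ± 0.11 in Abca1 (SE; limma adjusted p = 0.0446) and by -0.77 ± 0.13 in Abcg1 (SE; limma adjusted p = 0.0206), beside 2.89% called. The average Dex difference in Abcg1 was -0.68 ± 0.12 there (SE; limma adjusted p = 0.0239), beside 3.04% called. These calls come from 28 alternative fits of Dex against vehicle and 27 of the average, and the arrays left out were chosen by their Per1 level, so they are not independent of genes that vary with Per1. Without Vehicle 2, the array with the highest Abcg1 level, Dex differed from vehicle in Abcg1 by -0.10 ± 0.27 (SE; limma adjusted p = 0.977).

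**Figure D4:**
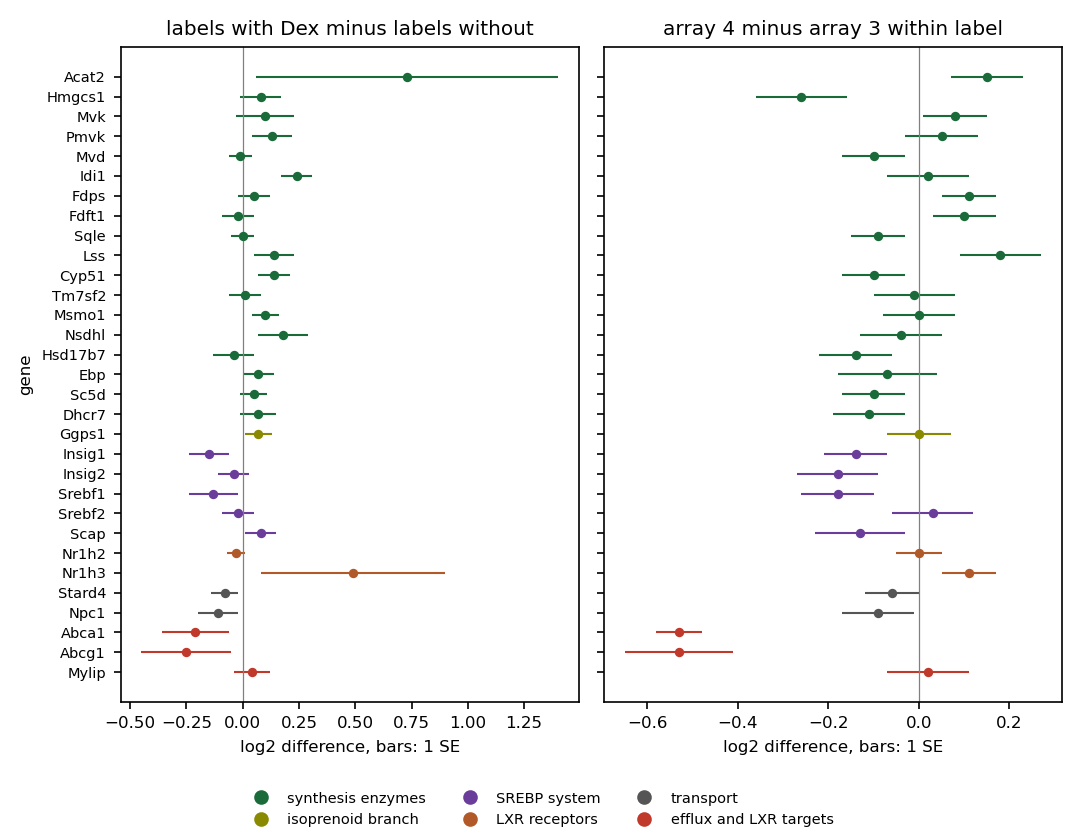
Log2 differences of the 31 genes, with bars of 1 SE, for labels with Dex minus labels without (left, 16 arrays) and for array 4 minus array 3 within label (right, 8 arrays), coloured by role and on separate horizontal scales. Abca1 and Abcg1 lie at -0.53 on the right, and Acat2 and Nr1h3 on the left have the widest bars.

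The LXR receptor genes were called neither between labels nor between array numbers, beside 0.0% and 3.11% of all genes. Nr1h2, encoding LXR beta, was at 0.88, 0.73, 0.89 and 0.83 on Vehicle 1 to 4 and at 0.80, 0.83, 0.91 and 0.94 on Dex 1 to 4. It was at 0.89, 0.99, 0.87 and 0.86 on E2 1 to 4, and at 0.84, 0.79, 0.80 and 0.82 on Dex+E2 1 to 4. It had the narrowest range of the 31 genes, 0.27, and array 4 differed from array 3 by 0.00 ± 0.05 (SE; 95% interval -0.13 to 0.12). Nr1h3, encoding LXR alpha, was at -4.48, -0.97, -0.80 and -0.74 on Vehicle 1 to 4 and at -0.67, -0.67, -0.81 and -0.76 on Dex 1 to 4. On E2 1 to 4 it was at -0.76, -0.76, -0.85 and -0.64, and on Dex+E2 1 to 4 at -0.76, -0.68, -0.94 and -0.82. Only Vehicle 1 lay apart. Dex differed from vehicle in Nr1h3 by 1.02 ± 0.58 (SE; limma adjusted p = 0.529), and by 0.11 ± 0.09 without Vehicle 1. Vehicle 1 had the lowest median correlation with the other arrays over genes, 0.98, beside 0.982 to 0.994 for the rest.

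Among the enzymes, array 4 differed from array 3 by -0.26 to 0.18, and none was called, beside 3.11% of all genes. Hmgcs1 had the smallest unadjusted p, 0.0386, at -0.26 ± 0.10 (SE; limma adjusted p = 0.276), and its second probe differed by 0.14. The 95% intervals of the 18 enzymes lay between -0.50 and 0.39. A median of -0.02 for the enzymes stood beside -0.04 for all genes.

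Further genes of the pathway came from 6 lists, of which 52 of 58 genes were tested. In array 4 against array 3, 2 were called higher and 2 lower, beside 3.11% of all genes, and 0 were called in the label comparisons over all 16 arrays. In the average Dex difference over arrays 1 and 2 only, where 6.65% of all genes were called, Fntb was called higher (0.71 ± 0.11 SE; limma adjusted p = 0.0129) and Stard3, a lysosomal cholesterol transporter gene, lower (-0.36 ± 0.06 SE; limma adjusted p = 0.0162). Without the 4 arrays that go against their labels, where 5.53% were called, it was Fntb (0.64; limma adjusted p = 0.000791) and Erlin2 (-0.23; limma adjusted p = 0.0451). The arrays left out were chosen by their Per1 level, so the calls of Fntb and Erlin2 there are not independent of genes that vary with Per1. Of all genes, 4.06% did not overlap between Per1-high and Per1-low arrays, a split that uses the same Per1 levels. Erlin2, which takes part in sterol-dependent protein degradation, differed by -0.33 ± 0.06 (SE; limma adjusted p = 0.0372) and was lower on every Per1-high array than on every Per1-low array. Vldlr, a lipoprotein receptor, differed by -0.71 ± 0.11 (SE; limma adjusted p = 0.0264). Fntb, a farnesyltransferase subunit, differed by 0.49 ± 0.08 (SE; limma adjusted p = 0.0387), and it was higher on every Per1-high array than on every Per1-low array. Lpin1, a phosphatidate phosphatase among the SREBP-1 genes, differed by 0.51 ± 0.09 (SE; limma adjusted p = 0.0397). The list of LXR partners and targets had 0 of 7 called, with a median of -0.09, and its smallest p was that of the coactivator gene Ncoa1, at -0.26 ± 0.06 (SE; limma adjusted p = 0.111). The oxysterol and bile acid list had 0 of 2 called.

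The promoters of 3 genes are shown to set the SREBP-target motifs of the pathway beside the efflux gene that differed between array numbers. The motifs were the sterol regulatory element core TCACNCCAC and the NF-Y box CCAAT, searched on both strands in the 250 bases before each RefSeq start (GRCm38.p6). Both are in capitals, and the reverse of CCAAT reads ATTGG. Each stretch is the 150 bases before the start, on the strand of the gene, at chr13:119690201-119690350 (plus strand) for Hmgcs1, chr13:8885456-8885605 (plus strand) for Idi1 and chr4:53159896-53160045 (minus strand) for Abca1.
Hmgcs1: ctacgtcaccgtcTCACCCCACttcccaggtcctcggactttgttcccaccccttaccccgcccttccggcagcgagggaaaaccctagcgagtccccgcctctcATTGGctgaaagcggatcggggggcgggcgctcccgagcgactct
Idi1: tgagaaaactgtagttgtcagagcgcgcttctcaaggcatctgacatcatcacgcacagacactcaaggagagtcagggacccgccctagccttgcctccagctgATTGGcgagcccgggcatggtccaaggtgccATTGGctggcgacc
Abca1: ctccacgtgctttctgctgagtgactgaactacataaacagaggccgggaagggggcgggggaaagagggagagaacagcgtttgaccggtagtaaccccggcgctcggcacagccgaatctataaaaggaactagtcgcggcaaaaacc
The core was found in 1 of the 25 members with a promoter entry, Hmgcs1, at 137 bases before the start, and in 1.05% of 32851 promoters. CCAAT was found in 20 of the 25 members and in 14 of the 15 enzymes with an entry, beside 37.5% of all genes. It was at 45 bases before the start in both Hmgcs1 and Idi1. The 250 bases before the Abca1 start held neither set of letters. A match is a description of the sequence and not a bound site.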

How the data were processed

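RNA of HL-1 cells was measured on 16 Agilent single-colour arrays. Per the file headers, the deposited processed signal is a linear intensity from which background was already subtracted, and Agilent Feature Extraction 12 is named in the submitters' processing notes. The authors' deposited series table holds log2 values with an equal median of 4.698 in every column; the sources used here do not give how it was made, and it served as an alternative. Control and outlier-flagged spots were left out, spots of a probe were averaged, and the level was log2 of the intensity minus the 75th percentile of the array. A probe stayed in when 1 or more labels had it well above background on each of their 4 arrays (24453 of 41174), 1 probe per gene, the brightest. Accessions named 28223 probes through RefSeq (GRCm38.p6). The number of arrays limits the precision.

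Comparisons used limma 3.58.1 (R 4.3.3, eBayes with trend), two-sided, on 16 arrays with the label as the only term, or on the 8 arrays numbered 3 and 4 with the label as covariate, and were tested on simulated data. Alternatives changed the background correction, normalization, probe filter, probe choice, variance trend, arrays and blocks. The planned normexp correction used spot medians, because the files used here hold no spot means. Array numbers are shared between labels. The correlation of deviations between same-numbered arrays was above 0.1 for all 4 numbers only between E2 and Dex+E2 (0.107 to 0.464). Between other labels the lowest was -0.156. Differently numbered arrays were not compared, and arrays 3 and 4 of E2 and Dex+E2 shared a slide. These values therefore do not show whether the numbers pair the arrays.

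The members, the lists and the comparison of array numbers were chosen with earlier results of these data known. Values on every array are given for members with the 3 smallest p in a label comparison, those called or not overlapping, and the SREBP, INSIG and LXR genes. Abcg1 was added to these after its values were seen. Of each further list, up to 4 genes with the smallest p were eligible to be named.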

Additional observations from a re-analysis of the deposited data

Results flagged for a closer look

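In 15 of 124 groups of 4 arrays, formed by each of the 31 genes and each label, 1 array stood far from the other 3 by Dixon's ratio, which chance gives in about 1 in 20 groups. On Vehicle 1 these were Acat2 at -8.01, with -2.04 to -1.93 on the other 3 arrays, Nr1h3 at -4.48, with -0.97 to -0.74, Srebf1 at 5.07, with 4.45 to 4.54, and Stard4 at 1.14, with 0.81 to 0.86. On Vehicle 2 it was Sqle at 3.25, with 3.47 to 3.5 on the others. On Dex 4 Fdps was high at 4.05, and Cyp51 at 1.24, Msmo1 at 3.64 and Ebp at 4.79 were low. On Dex 3 Mvd was high at 1.45. On Dex+E2 4 Insig2 at 2.17, Srebf1 at 4.35, Scap at 3.92 and Mylip at 0.65 were low, and on Dex+E2 3 Mvk was low at -0.34.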

How the results depend on the processing

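Between array numbers, Abca1 kept its direction over 15 alternatives, at -0.54 to -0.41. In the average Dex difference, Idi1 (0.19 to 0.41), Abca1 (-0.45 to -0.13) and Abcg1 (-0.68 to -0.12) kept theirs over 27. Abcg1 in Dex+E2 against vehicle, called as lower over arrays 1 and 2 only, was at 0.02 ± 0.29 (SE) with slide as a block. Uncalled group medians also changed direction. The enzyme median against vehicle went from 0.07 to -0.44 in E2 and from 0.08 to -0.21 in Dex+E2 with normexp, and to -0.02 in E2 without Vehicle 2. The replicate block, with array number as a term, left 0 members and 0 genes called in all 7 label comparisons, with an adjusted p of 0.223 for Abca1 and 0.237 for Idi1 in the average Dex difference, so it changed no call. Without the 4 arrays that go against their labels, limma called 432 genes in Dex against vehicle, 460 in Dex+E2 against vehicle, 343 in Dex+E2 against E2 and 982 in the average Dex difference, with 1 member in the last. Those 4 arrays were chosen by their Per1 level. With arrays 1 and 2 only, the counts were 419, 656, 579 and 1182, with 1 member in Dex+E2 against vehicle and 2 in the average. With slide as a block and without the 4 arrays (added after seeing the data) they were 513, 138, 142 and 541, with 2 members in Dex against vehicle and 1 in the average. Within slide 1, Dex against vehicle called 45 genes and 0 members. With no variance trend, E2 against vehicle called 1 gene. Leaving out single arrays gave 0 to 1 genes in the average Dex difference, 1 without Dex 2, and 0 members in every label comparison. Between array numbers, limma called 236 genes with no filter, 359 with no variance trend, and 982 with the label left out (no replicate block). Members called were 2 with the label left out and 2 with normexp, Abca1 and Abcg1. Leaving out single arrays gave 161 to 555 genes and 0 to 1 members. With normexp, 85 genes did not overlap by Per1, and 0 members did not overlap within both pairs of array numbers. Apart from the arrays and terms each setting drops, the cause was not tested. Acat2 on Vehicle 1 was not well above background, which limits its values.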
